A study of Homo sapiens with 6 samples.

Results

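The cullin, F-box, kelch-like, kelch-domain and TRIM genes encode scaffolds, substrate receptors and single-chain members of the ubiquitin ligases. They were taken here as every named gene whose symbol is CUL, FBXO, FBXL, FBXW, KLHL, KLHDC or TRIM followed by digits, with or without a letter at the end. This gave 170 of the 14883 named genes on the arrays, of which 8 were CUL, 33 FBXO, 15 FBXL, 9 FBXW, 35 KLHL, 10 KLHDC and 60 TRIM genes. All 170 are protein-coding in the RefSeq gene table, which lists 191 protein-coding genes with such symbols. The other matching genes, FBXW7, FBXO31, FBXL2 and TRIM71 among them, were not analysed here.

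The cells were of SK-N-BE(2), an established human neuroblastoma line. The shBRG1 group (n = 3) received lentivirus with a short hairpin against BRG1, which SMARCA4 encodes and which drives nucleosome remodelling by the SWI/SNF complex. The NSC group (n = 3) received lentivirus with a non-silencing hairpin, so both groups were virus-infected and harvested 48 h later. One Affymetrix array per sample received 200 ng of total RNA. A single hairpin label and a single cell line stand behind all comparisons, and the level of SMARCA4 was not analysed here, so the knockdown was not checked on these arrays. Nothing in the labels says that the 3 samples of a group were separate cultures, so the p-values reflect the spread among these arrays alone and that spread may be technical. In a bulk sample, fewer cells with a transcript and less of it per cell cannot be told apart.

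Ubiquitin ligases pass ubiquitin from an E2 enzyme to a chosen protein and so often mark it for the proteasome. In cullin-RING ligases a cullin is the scaffold: CUL1 holds SKP1 and an F-box protein, CUL2 holds elongins and a receptor such as VHL or a KLHDC protein, CUL3 holds a BTB-domain receptor such as a KLHL protein, and CUL4A and CUL4B hold DDB1 and a DCAF receptor. The letters after FBX give the substrate-binding domain, with WD repeats in FBXW, leucine-rich repeats in FBXL and other domains in FBXO. TRIM proteins carry RING, B-box and coiled-coil domains in 1 chain, and many act as ligases without a cullin. In neural cells these ligases are known for control of the cell cycle, of axon growth and of the balance between proliferation and differentiation.

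Of the 170 genes, 26 passed the threshold of an adjusted p of 0.05 (limma, adjusted over all 14883 named genes), 18 of them higher and 8 lower in shBRG1 cells. That is 15.3% of the members, beside 17.0% of all named genes. The share higher was 10.6%, beside 9.78% of all named genes, and the share lower was 4.71%, beside 7.19%. These shares lie near those of all named genes. The kelch-domain receptor gene KLHDC3, the TRIM ligase gene TRIM32 and the F-box genes FBXL16 and FBXO36 rose most, and the scaffold genes CUL2 and CUL4B and the muscle-expressed TRIM55 fell most. KLHDC3 alone changed at least 2-fold.

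The 3 shBRG1 values lay outside the NSC range in 63 of the 170 genes, 39 of them above it and 24 below it. This was 37.1% of the members, beside 35.5% of all named genes. The median log2 difference, shBRG1 minus NSC, was 0.03 over the members and 0.01 over all named genes, and the members ran between -0.62 for TRIM55 and 1.22 for KLHDC3. At an unadjusted p of 0.05, 55 members (32.4%) passed, beside 30.4% of all named genes.

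**Figure D1:**
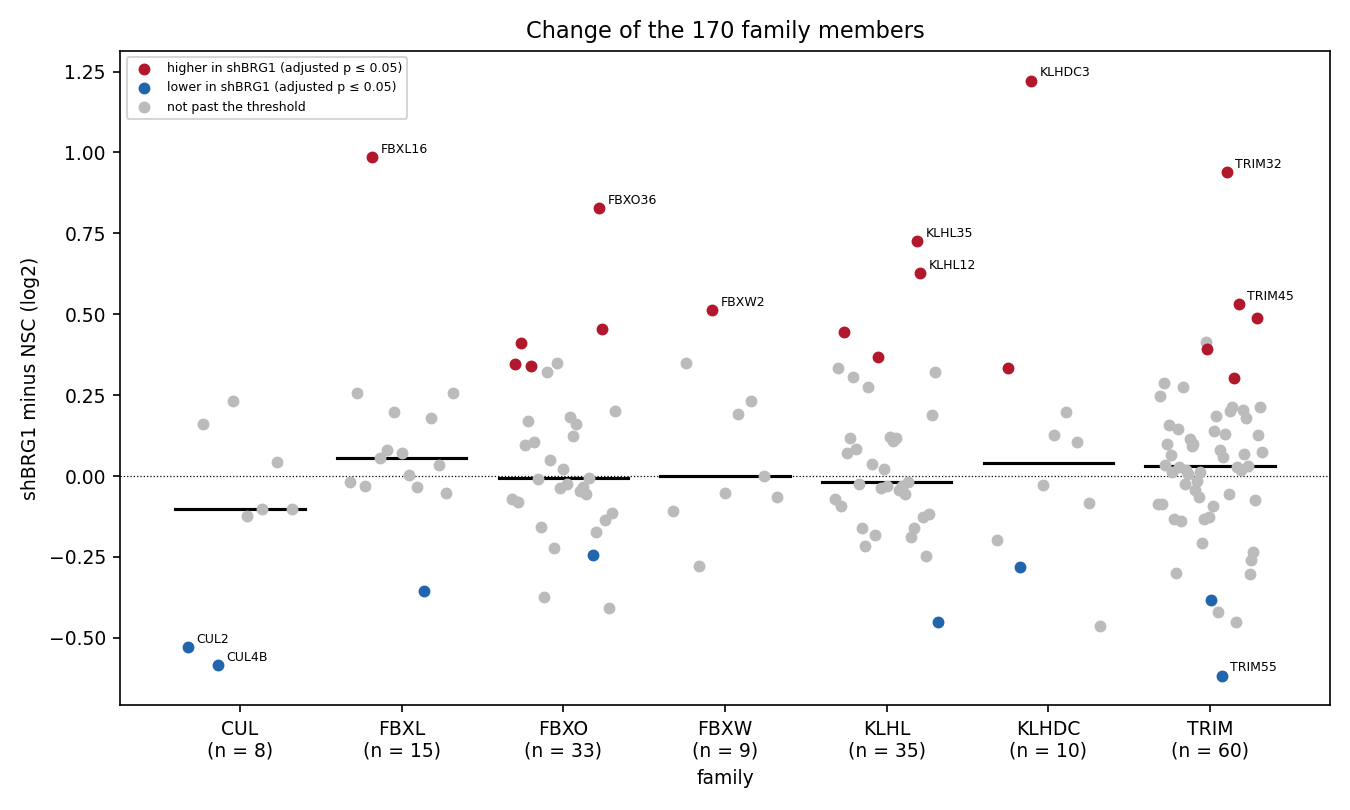
Log2 difference, shBRG1 minus NSC, of each of the 170 genes by family, one point per gene, with genes past the adjusted p of 0.05 coloured and the family median as a line. Called genes lie on both sides of 0 in the FBXL, FBXO, KLHL, KLHDC and TRIM families, while both called CUL genes are lower and the called FBXW gene is higher.

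The called genes were mostly the brighter ones. A gene's level is the log2 value of its brightest probe set, which depends on the probes as well as on the transcript and so gives no order of abundance between genes. The median level was 5.58 over the members and 5.09 over all named genes, and 101 members (59.4%) were at or above the median named gene. Among those 101 genes 22.8% were called, beside 29.2% of all named genes that bright. Of the 69 dimmer members 3 were called (4.35%), namely FBXO36, TRIM45 and KLHL35, beside 4.69% of all named genes that dim. The called share of the brighter members was below that of other bright genes; whether that difference exceeds chance was not tested.

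**Figure D2:**
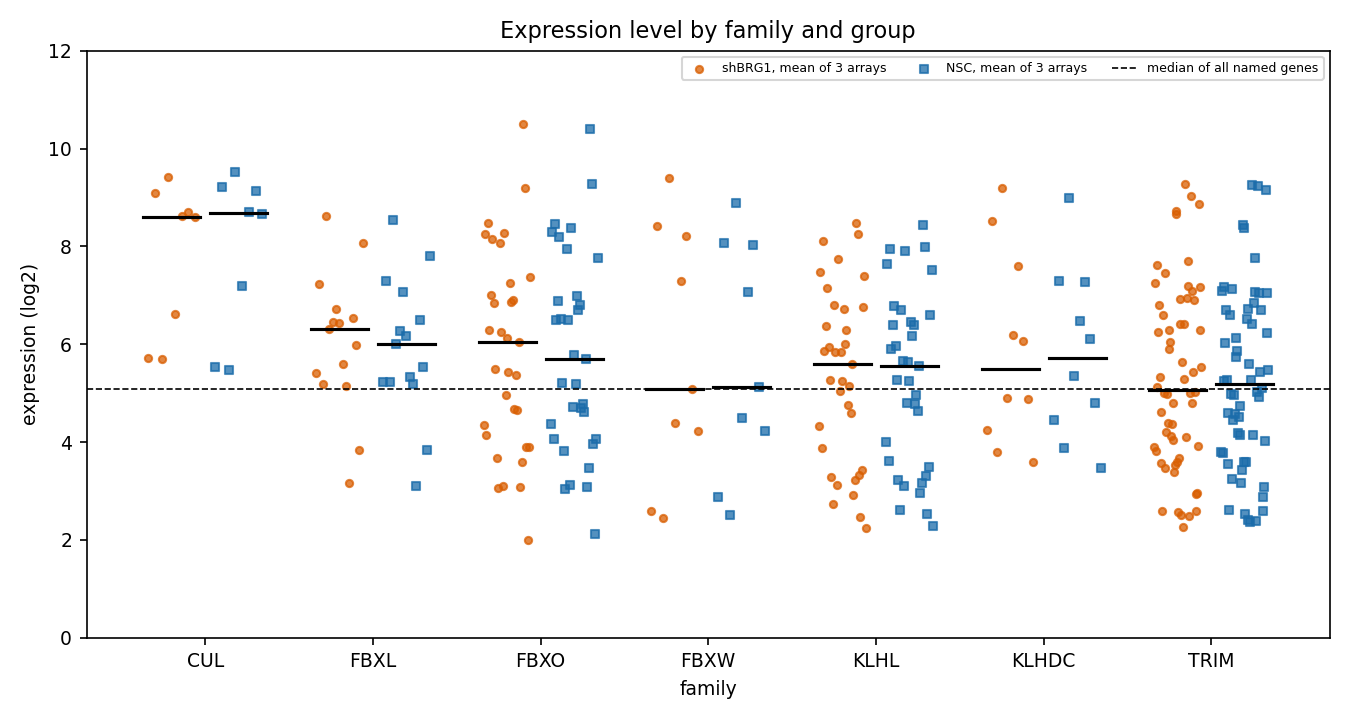
Mean log2 level of each of the 170 genes by family, over the 3 shBRG1 arrays (circles) and the 3 NSC arrays (squares), with the median of each as a bar and the median of all named genes as a dashed line. All 8 CUL genes lie above the dashed line in both groups, and over the 6 arrays 30 of the 60 TRIM genes do.

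The promoters of 6 called genes are printed: KLHDC3, TRIM32, FBXO36 and FBXW2, which rose, and the scaffold genes CUL2 and CUL4B, which fell. Each call held under every alternative in which the gene was tested. The same is true of TRIM4 and TRIM14, which rose, and of KLHL26, a KLHL gene that fell. Their promoters are not shown, so the 6 are a choice and not the full set. Each is the 250 bases before the first listed RefSeq transcript start on GRCh38.p14, read 5′ to 3′ on the strand of the gene. KLHDC3 lies at chr6:43013999-43014248 (plus strand), TRIM32 at chr9:116687055-116687304 (plus strand) and FBXO36 at chr2:229922253-229922502 (plus strand). FBXW2 lies at chr9:120793417-120793666 (minus strand), CUL2 at chr10:35090615-35090864 (minus strand) and CUL4B at chrX:120575533-120575782 (minus strand). RefSeq lists 2 starts for TRIM32, 3 for CUL2 and 4 for CUL4B, and only the first of each is shown. Capitals mark a match, on either strand, to the CCAAT box (CCAAT), the GC box (GGGCGG), the TATA box (TATAAA), the E-box (CACGTG), the ETS core (CCGGAA) or the cyclic AMP response element (TGACGTCA).
KLHDC3: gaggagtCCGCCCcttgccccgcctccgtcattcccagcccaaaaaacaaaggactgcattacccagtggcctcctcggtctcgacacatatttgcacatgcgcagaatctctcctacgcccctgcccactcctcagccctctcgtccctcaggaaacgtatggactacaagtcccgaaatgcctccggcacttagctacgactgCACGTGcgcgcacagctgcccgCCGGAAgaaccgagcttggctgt
TRIM32: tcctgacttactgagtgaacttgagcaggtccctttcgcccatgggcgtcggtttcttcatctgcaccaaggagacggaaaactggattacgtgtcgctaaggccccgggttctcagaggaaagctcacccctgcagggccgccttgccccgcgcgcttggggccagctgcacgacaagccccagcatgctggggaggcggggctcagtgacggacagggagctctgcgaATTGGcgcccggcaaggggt
FBXO36: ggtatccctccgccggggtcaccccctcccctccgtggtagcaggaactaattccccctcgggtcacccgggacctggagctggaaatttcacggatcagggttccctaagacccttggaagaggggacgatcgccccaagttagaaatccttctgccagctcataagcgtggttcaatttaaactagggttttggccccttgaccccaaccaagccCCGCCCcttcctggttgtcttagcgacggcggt
FBXW2: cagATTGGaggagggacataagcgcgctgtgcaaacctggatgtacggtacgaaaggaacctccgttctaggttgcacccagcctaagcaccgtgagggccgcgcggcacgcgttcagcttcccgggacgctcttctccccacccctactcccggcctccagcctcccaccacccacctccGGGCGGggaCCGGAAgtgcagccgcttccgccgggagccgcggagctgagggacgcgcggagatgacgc
CUL2: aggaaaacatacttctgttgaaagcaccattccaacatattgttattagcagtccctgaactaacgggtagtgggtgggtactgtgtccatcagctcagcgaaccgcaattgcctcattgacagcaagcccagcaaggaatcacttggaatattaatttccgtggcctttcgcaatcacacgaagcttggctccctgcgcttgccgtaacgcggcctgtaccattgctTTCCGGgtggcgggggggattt
CUL4B: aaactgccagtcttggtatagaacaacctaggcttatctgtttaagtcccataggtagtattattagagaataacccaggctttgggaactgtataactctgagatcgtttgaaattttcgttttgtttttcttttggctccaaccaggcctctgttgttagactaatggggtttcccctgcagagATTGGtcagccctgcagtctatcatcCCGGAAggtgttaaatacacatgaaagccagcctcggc

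These letters are a description of the windows and not evidence of binding. The KLHDC3 window held a GC box, an E-box and an ETS core, and the FBXW2 window a CCAAT box, a GC box and an ETS core. The CUL4B window held a CCAAT box and an ETS core, and the CUL2 window an ETS core. TRIM32 had a CCAAT box and FBXO36 a GC box. Windows were given for 136 members and for 27305 genes in all. The ETS core was in 19.1% of the member windows and 14.8% of all windows, in 5 of the 14 windows of members that rose and in 5 of the 6 of members that fell. The GC box was in 54.4% of member windows against 42.3% of all, 10 of the 14 and 2 of the 6. The CCAAT box was in 31.6% against 33.0%, 3 of the 14 and 2 of the 6. The TATA box was in 9.56% against 11.1%, the E-box in 6.62% against 6.49% and the response element in 1.47% against 1.77%. The median GC content was 62.8% in member windows and 58% in all windows. None of these shares was tested.

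Among the cullins, CUL2 and CUL4B fell and the other 6 did not pass the test. CUL2 had log2 values of 8.61, 8.66 and 8.58 on the shBRG1 arrays, against 9.24, 9.17 and 9.01 on the NSC arrays. The lowest NSC value was above every shBRG1 value, and the difference was -0.53 (SE 0.08, n = 3 each, limma adjusted p = 0.00506). CUL4B had 6.49, 6.66 and 6.69 in shBRG1 cells and 7.38, 7.09 and 7.12 in NSC cells, again without overlap, a difference of -0.58 (SE 0.10, adjusted p = 0.00790). Both calls held when any array was left out. CUL4A, the close relative of CUL4B, had 8.56, 8.71 and 8.53 in shBRG1 cells and 8.71, 8.69 and 8.69 in NSC cells. These overlapped, and its difference was -0.10 (adjusted p = 0.42).

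The CUL4B difference was 0.48 log2 units more negative than that of CUL4A, and the within-array differences between the genes did not overlap between the groups. An exact two-sided permutation test of that gave p = 0.1, the smallest that 3 against 3 arrays can give, and 0.15 after adjustment over the 9 gene pairs tested in this way. CUL1, the scaffold of F-box ligases, differed by -0.10 and CUL3, the scaffold of KLHL ligases, by -0.12. CUL5, the scaffold of SOCS-box ligases, differed by 0.04. CUL9, a scaffold that binds p53 in the cytoplasm, differed by 0.16, and CUL7, the partner of FBXW8, by 0.23 (adjusted p = 0.13). CUL7 and CUL9 differed from each other by 0.07 (exact p = 0.6). None of these 6 cullins passed the test.

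Of the 9 FBXW genes 1 rose (11.1% called, beside 17.0% of all named genes). FBXW2 had 9.42, 9.40 and 9.40 in shBRG1 cells, against 8.93, 8.84 and 8.89 in NSC cells. The arrays of each group were nearly equal and the groups far apart. The difference was 0.51 (SE 0.06, adjusted p = 0.00236), and it held when any array was left out. FBXW8, the CUL7 receptor, had 8.42, 8.45 and 8.38 in shBRG1 cells and 8.22, 7.84 and 8.14 in NSC cells. The groups did not overlap, yet the difference of 0.35 missed the threshold (adjusted p = 0.061). FBXW11, a beta-TrCP receptor of phosphorylated substrates such as beta-catenin, missed it narrowly as well, at 0.23 (adjusted p = 0.051), with 7.30, 7.30 and 7.28 in shBRG1 cells and 7.09, 7.00 and 7.11 in NSC cells.

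Among the 15 FBXL genes 1 rose and 1 fell (13.3% called, beside 17.0% of all named genes). FBXL16, a leucine-rich repeat F-box gene, had 6.52, 6.37 and 6.05 in shBRG1 cells, against 5.13, 5.14 and 5.71 in NSC cells. All shBRG1 values were higher, although the third array of each group lay towards the other group, and the difference was 0.99 (SE 0.18, adjusted p = 0.0107). FBXL12 had 6.68, 6.74 and 6.73 in shBRG1 cells and 7.24, 7.00 and 6.99 in NSC cells, a difference of -0.36 (SE 0.09, adjusted p = 0.0286). That call was lost without NSC replicate 1 (adjusted p = 0.064) and without any 1 of the shBRG1 replicates (0.071 to 0.089). FBXL5, the iron-sensing receptor of IRP2, was the brightest of the family and differed by 0.08. FBXL20 was the next brightest and differed by 0.26 (adjusted p = 0.056).

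Of the 33 FBXO genes 5 rose and 1 fell (18.2% called, beside 17.0% of all named genes). FBXO36 had 5.66, 5.53 and 5.13 in shBRG1 cells and 4.49, 4.76 and 4.60 in NSC cells, a difference of 0.83 (SE 0.14, adjusted p = 0.00817). FBXO33 had 7.10, 7.30 and 7.36 in shBRG1 cells and 6.76, 6.78 and 6.85 in NSC cells, a difference of 0.45 (SE 0.09, adjusted p = 0.0109). Both were called without any 1 array, and neither had overlapping groups. The other 3 that rose were FBXO42, a receptor reported to target p53 (0.41, adjusted p = 0.0337), FBXO4, a receptor linked to cyclin D1 (0.35, 0.0345), and FBXO38 (0.34, 0.0383). FBXO42 and FBXO38 were lost without any 1 array other than NSC replicate 3, with adjusted p up to 0.10 each. FBXO4 was lost without each of the 6 arrays (up to 0.099), and FBXO4 and FBXO38 were also lost after cyclic loess scaling.

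FBXO5, also called EMI1, is an inhibitor of the anaphase-promoting complex and itself a substrate of beta-TrCP. It had 6.18, 6.30 and 6.28 in shBRG1 cells and 6.50, 6.45 and 6.54 in NSC cells. The groups did not overlap, but the difference of -0.24 (SE 0.07, adjusted p = 0.0491) was lost without each of the 6 arrays, reaching 0.14 without shBRG1 replicate 1. FBXO8, the brightest of all 170 genes, had 10.49, 10.54 and 10.47 in shBRG1 cells and 10.46, 10.38 and 10.35 in NSC cells, and its difference of 0.11 missed the threshold (adjusted p = 0.35). FBXO7, a gene of familial parkinsonism, differed by -0.08. FBXO11, a receptor of BCL6, differed by -0.03, and FBXO45, which works with MYCBP2 in axons, by 0.12. FBXO32, the atrogin-1 gene of muscle atrophy, was dim (3.45 to 3.77 over the 6 arrays) and differed by 0.20 (adjusted p = 0.095).

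Of the 35 KLHL genes 4 rose and 1 fell (14.3% called, beside 17.0% of all named genes). KLHL12, the CUL3 receptor that ubiquitylates SEC31 in COPII coats, had 6.89, 6.88 and 6.62 in shBRG1 cells, against 6.12, 6.03 and 6.36 in NSC cells. The groups did not overlap, and the difference of 0.63 (SE 0.11, adjusted p = 0.0101) held without any 1 array. KLHL26 had 5.88, 6.05 and 5.91 in shBRG1 cells and 6.45, 6.34 and 6.39 in NSC cells, a difference of -0.45 (SE 0.08, adjusted p = 0.00709) that also held. KLHL35 had 4.43, 4.13 and 4.45 in shBRG1 cells and 3.51, 3.94 and 3.38 in NSC cells. Its groups were apart, with replicate 2 of each nearest the other, and the difference was 0.73 (SE 0.16, adjusted p = 0.0190). It was lost on leaving out replicate 1 or 3 of either group (0.055 to 0.066). KLHL29 had 6.03, 6.04 and 5.93 in shBRG1 cells and 5.35, 5.69 and 5.63 in NSC cells. Its difference of 0.44 (SE 0.10, adjusted p = 0.0218) was lost without shBRG1 replicate 1 or 2 (0.070 each).

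KLHL42, a CUL3 receptor of the microtubule-severing katanin, rose by 0.37 (SE 0.08, adjusted p = 0.0189). It had 7.12, 7.14 and 7.17 in shBRG1 cells and 6.68, 6.74 and 6.91 in NSC cells. The call was lost without any 1 array other than NSC replicate 3 (up to 0.065). Its 3 probe sets differed among themselves: the brightest gave 0.37, the next 0.00 with overlapping groups, and the dimmest 0.41. KLHL9 and KLHL13 are close relatives that form CUL3 ligases acting on Aurora B in mitosis. KLHL9 had 8.20, 8.35 and 8.22 in shBRG1 cells and 7.94, 7.80 and 8.11 in NSC cells (0.31, adjusted p = 0.069). KLHL13 had 7.81, 7.69 and 7.71 in shBRG1 cells and 7.84, 7.92 and 7.94 in NSC cells (-0.16, adjusted p = 0.17). Neither passed the test, while their within-array difference was 0.47 higher in shBRG1 cells and did not overlap between the groups (exact p = 0.1, 0.15 after adjustment over the 9 pairs).

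The KLHL genes KLHL7, KLHL20, KLHL21, KLHL22 and KLHL24 did not pass the test. KLHL21, a midzone receptor of Aurora B, differed by 0.19 and KLHL22, a receptor of PLK1, by 0.08. KLHL20, the brightest of the family, differed by 0.04, KLHL7, mutated in retinitis pigmentosa, by -0.22, and KLHL24, a keratin receptor, by 0.32 (adjusted p = 0.10).

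Of the 10 KLHDC genes 2 rose and 1 fell (30.0% called, beside 17.0% of all named genes). Whether that share differs from that of all genes was not tested. KLHDC2, KLHDC3 and KLHDC10 are CUL2 receptors that recognise the last residues of proteins, the C-end degrons. KLHDC3 had 8.41, 8.59 and 8.55 in shBRG1 cells, against 7.34, 7.16 and 7.39 in NSC cells. The lowest shBRG1 value stood more than 1 log2 unit above the highest NSC value, and the difference of 1.22 (SE 0.09, adjusted p = 0.000345) was 2.33-fold. KLHDC2 had 7.60, 7.63 and 7.59 in shBRG1 cells and 7.33, 7.13 and 7.36 in NSC cells, a difference of 0.33 (SE 0.08, adjusted p = 0.0283). KLHDC10, the brightest of the family, had 9.08, 9.23 and 9.26 in shBRG1 cells and 9.03, 8.92 and 9.04 in NSC cells, a difference of 0.20 that missed the threshold (adjusted p = 0.14). KLHDC8B fell by 0.28 (SE 0.07, adjusted p = 0.0345), with 6.10, 6.20 and 6.26 in shBRG1 cells and 6.50, 6.42 and 6.49 in NSC cells. Without any 1 array the KLHDC3 call held, the KLHDC8B call was lost each time (up to 0.11), and the KLHDC2 call was lost except without NSC replicate 3 (up to 0.082).

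**Figure D3:**
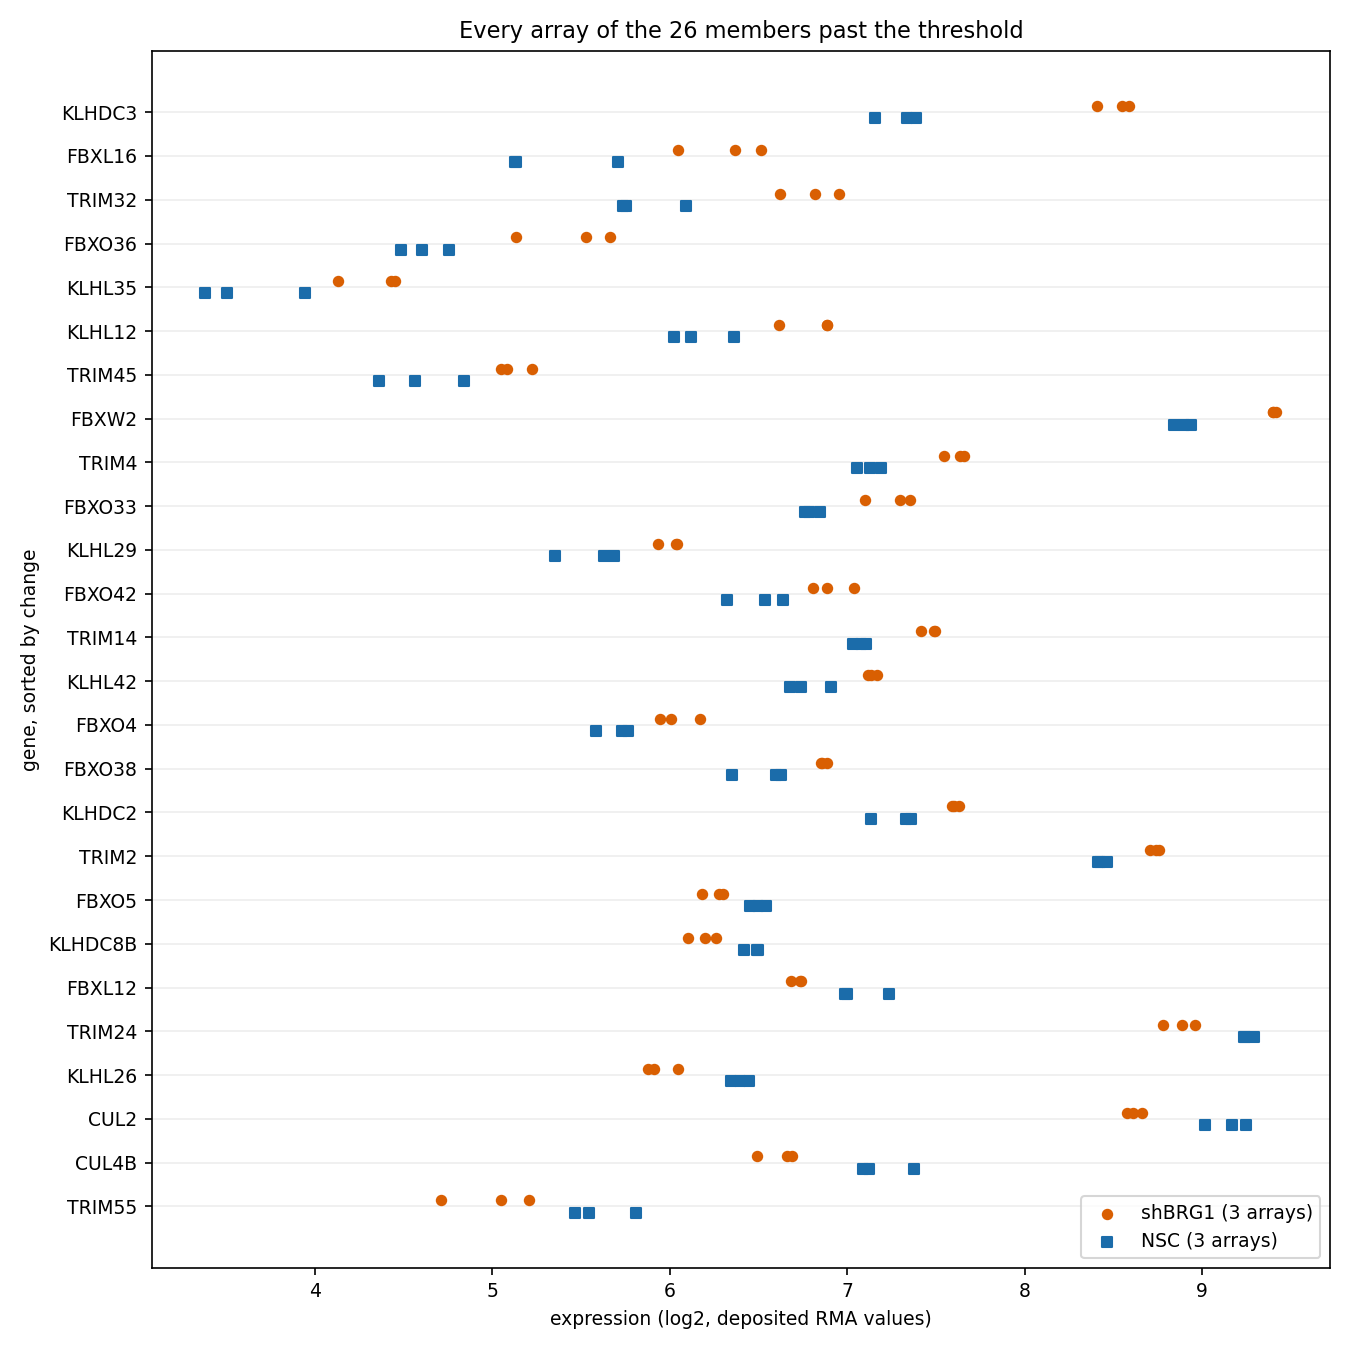
Deposited log2 value of each of the 26 called genes on the 3 shBRG1 arrays (circles) and the 3 NSC arrays (squares), one row per gene, sorted by the difference between the groups. KLHDC3 has the widest gap between the groups, and no called gene has overlapping groups.

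Of the 60 TRIM genes 5 rose and 2 fell (11.7% called, beside 17.0% of all named genes). TRIM32, a ligase of skeletal muscle and of neural progenitors, had 6.62, 6.95 and 6.82 in shBRG1 cells, against 6.09, 5.74 and 5.75 in NSC cells. The groups were apart, and the difference of 0.94 (SE 0.13, adjusted p = 0.00301) was 1.92-fold. TRIM4 and TRIM14, both linked to antiviral signalling, rose by 0.49 (SE 0.07, adjusted p = 0.00441) and 0.39 (SE 0.07, adjusted p = 0.00708). TRIM4 had 7.55, 7.66 and 7.64 in shBRG1 cells and 7.05, 7.13 and 7.19 in NSC cells, and TRIM14 had 7.50, 7.49 and 7.41 in shBRG1 cells and 7.03, 7.08 and 7.11 in NSC cells. All 3 of these calls held without any 1 array. TRIM45 had 5.08, 5.22 and 5.05 in shBRG1 cells and 4.36, 4.84 and 4.56 in NSC cells, a difference of 0.53 (SE 0.12, adjusted p = 0.0251). It was lost without any 1 array other than NSC replicate 2 (up to 0.083).

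TRIM2, a neuronal ligase of neurofilament light chain, had 8.76, 8.74 and 8.71 in shBRG1 cells and 8.42, 8.41 and 8.46 in NSC cells. The groups were apart by more than the range within either, and the difference was 0.30 (SE 0.06, adjusted p = 0.0164), lost on leaving out NSC replicate 1, NSC replicate 2 or shBRG1 replicate 1 (0.051 to 0.059). Its relative TRIM3 had 5.20, 4.86 and 4.93 in shBRG1 cells and 5.06, 5.16 and 4.66 in NSC cells, which overlapped (0.03). The TRIM2 difference exceeded that of TRIM3 by 0.27, with an exact permutation p of 0.3. TRIM9, a neuronal ligase of axon branching, differed by -0.09 and its relative TRIM67 by 0.16. TRIM36 differed by 0.03. None of these 4 relatives and neuronal genes passed the test.

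TRIM24, TRIM28 and TRIM33 are chromatin-binding TRIM proteins that carry a PHD finger and a bromodomain. TRIM24 fell, with 8.88, 8.96 and 8.78 in shBRG1 cells and 9.29, 9.24 and 9.24 in NSC cells, a difference of -0.38 (SE 0.07, adjusted p = 0.0117) that held without any 1 array. TRIM33 had 8.98, 9.09 and 9.04 in shBRG1 cells and 9.28, 9.25 and 9.19 in NSC cells, and its difference of -0.21 missed the threshold (adjusted p = 0.082) although the groups did not overlap. TRIM28, the corepressor of KRAB zinc-finger proteins, differed by 0.29 with overlapping groups (adjusted p = 0.11). The TRIM24 difference was 0.18 more negative than that of TRIM33 (exact p = 0.1, the smallest possible, and 0.15 after adjustment).

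TRIM55, a sarcomere-associated ligase of muscle, fell by 0.62 (SE 0.14, adjusted p = 0.0255). It had 5.05, 5.21 and 4.71 in shBRG1 cells and 5.54, 5.47 and 5.81 in NSC cells. The third array of each group lay farthest from the other group, and the call was lost on leaving out replicate 1 or 3 of either group (0.057 to 0.073). TRIM37, a centrosomal ligase and the brightest of the family, differed by 0.13. TRIM25, which acts on RIG-I, differed by 0.01 and TRIM27 by -0.07, and neither passed the test. TRIM43B, named after its value was seen, has a near-identical copy in TRIM43, so that they can share probe signal. Its difference of -0.45 was not called on the deposited values, but it was called after median centring and with trend and robust options.

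Of the 26 calls, 13 held at the threshold of 0.05 under every alternative fit in which the gene was tested, 9 of them higher and 4 lower. Those that rose were KLHDC3, TRIM32, FBXL16, FBXO36, KLHL12, FBXW2, TRIM4, FBXO33 and TRIM14, and those that fell were CUL4B, CUL2, KLHL26 and TRIM24. At an adjusted p of 0.01, 6 of those that rose and 3 of those that fell still passed, while KLHL12, FBXL16, FBXO33 and TRIM24 did not (0.0101 to 0.0117). FBXO36 was too dim to be tested in the alternative without dim genes. The number of members called depended on which array was left out: without shBRG1 replicate 1 there were 9 higher and 4 lower, and without NSC replicate 3 there were 17 higher and 5 lower. Without shBRG1 replicate 2 there were 11 higher and 7 lower, and without shBRG1 replicate 3 there were 11 higher and 4 lower. Without NSC replicate 1 there were 13 higher and 4 lower, and without NSC replicate 2 there were 13 higher and 8 lower. The split also moved with scaling, being 18 higher and 8 lower as deposited, 18 and 11 with each array centred on its median, and 16 and 15 after cyclic loess. The split of all named genes moved the same way, with 1455 higher and 1070 lower as deposited, 1285 and 1150 after centring, and 1226 and 1324 after cyclic loess.

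Several members start close to a gene on the opposite strand. Within 1000 bases, 35 members had such a neighbour in RefSeq and 17 had one measured on the arrays. For the 4 called members with a measured neighbour, the neighbour was not called in any case. Beside this stand 17.0% of all named genes that were called, and a difference from that share was not tested. MEA1 starts 30 bases from KLHDC3 and had 8.45, 8.49 and 8.47 in shBRG1 cells and 8.50, 8.46 and 8.49 in NSC cells. Its difference was -0.01 (95% interval -0.16 to 0.13), while that of KLHDC3 was 1.22 (1.01 to 1.43). ASTN2, a neuronal migration gene that starts 42 bases from TRIM32, had 8.65, 8.74 and 8.69 in shBRG1 cells and 8.87, 8.85 and 8.91 in NSC cells. Its groups did not overlap and lay in the opposite order to those of TRIM32, but the difference of -0.18 missed the threshold (adjusted p = 0.10). TRIP12, itself a ubiquitin ligase gene, starts 683 bases from FBXO36 and differed by 0.00 (95% interval -0.16 to 0.17). MANSC4 starts 3 bases from KLHL42 and was dim, with a difference of -0.11.

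In the first 3 of these pairs the within-array difference of member minus neighbour did not overlap between the groups. It was higher in shBRG1 cells by 1.24 for KLHDC3 and MEA1, 1.12 for TRIM32 and ASTN2, and 0.82 for FBXO36 and TRIP12. Each gave an exact permutation p of 0.1, the smallest possible, and 0.15 after adjustment over the 9 pairs. For KLHL42 and MANSC4 it was 0.48 (exact p = 0.2). The members of these 4 pairs were taken because they were called, so the permutation p-values give no further support to their calls. Among the other members with a measured neighbour, 1 neighbour was called: CEP44, a centrosomal gene beside FBXO8, rose by 0.34. It was the only called neighbour in the 17 measured pairs, beside 17.0% of all named genes called.

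**Figure D4:**
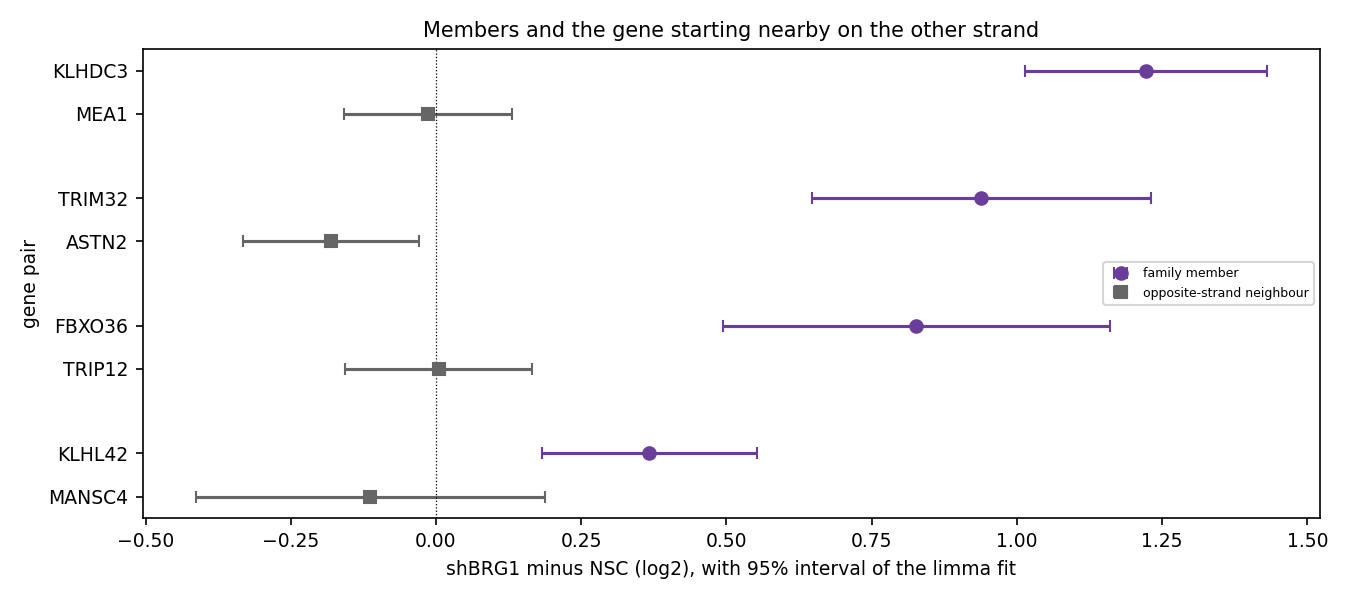
Log2 difference, shBRG1 minus NSC, with the 95% interval of the limma fit, of the 4 called ligase genes (circles) and of the measured neighbours that start on the opposite strand (squares). The intervals of KLHDC3, TRIM32 and FBXO36 lie above those of MEA1, ASTN2 and TRIP12, whose differences are -0.01, -0.18 and 0.00.

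The machinery around the cullins was described from further gene lists. The called share was 16.7% of core subunits, 38.5% of NEDD8 and COP9 genes, 34.6% of relatives under other symbols and 23.1% of other receptors. It was 38.2% of substrates, 37.5% of NRF2 targets, 0.0% of ubiquitin and E1 genes and 21.7% of E2 genes. Beside them stand 17.0% of all named genes and 29.2% of those at or above the median level. In each list 66.7% to 92.3% of genes were that bright, and none of these shares was tested. Of 6 measured core subunits and adaptors 1 rose, DDA1, a subunit of the CUL4-DDB1 ligases. It had 8.92, 8.98 and 8.97 in shBRG1 cells, against 7.84, 7.65 and 7.84 in NSC cells. The groups lay over 1 log2 unit apart, and the difference was 1.18 (SE 0.08, adjusted p = 0.000268). The DDA1 call held without any 1 array (limma adjusted p up to 0.0027). Of 13 genes of NEDD8 attachment and of the COP9 signalosome, which removes NEDD8 from cullins, 2 rose and 3 fell. COPS5, the catalytic subunit, rose by 0.30 and COPS7A by 0.25, while COPS2 fell by 0.29, COPS7B by 0.31 and COPS8 by 0.24. These 5 calls depended on single arrays: with 1 array left out, 0 or 1 rose and 0 or 1 fell, and adjusted p reached 0.14 for COPS8. Neither higher call held after median centring or cyclic loess.

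Of 26 measured relatives of the families that carry other symbols, 5 rose and 4 fell. ENC1, a kelch gene of the nervous system, had 8.18, 8.00 and 8.10 in shBRG1 cells, against 8.90, 8.93 and 8.96 in NSC cells. Its groups were far apart, and the difference was -0.84 (SE 0.07, adjusted p = 0.000625). HCFC2 fell by 0.71, IVNS1ABP by 0.44 and KBTBD2, a CUL3 receptor, by 0.43. The 5 that rose were KBTBD6 (0.41), KEAP1 (0.38), IPP (0.38), HCFC1 (0.35) and KDM2A (0.32), of which KDM2A was named after its value was seen. KDM2A was lost without any 1 array other than NSC replicate 3 (up to 0.071). HCFC1 and HCFC2, related kelch genes, were called in opposite directions, with HCFC1 at 9.22, 9.30 and 9.27 in shBRG1 cells and 8.94, 8.89 and 8.93 in NSC cells.

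KEAP1 is the CUL3 receptor that holds NRF2, the product of NFE2L2, at a low level. KEAP1 had 8.62, 8.66 and 8.64 in shBRG1 cells, against 8.29, 8.21 and 8.27 in NSC cells (adjusted p = 0.00713). NFE2L2 had 7.65, 7.74 and 7.66 in shBRG1 cells and 7.30, 7.25 and 7.24 in NSC cells, a difference of 0.42. Both groups of arrays were apart for each gene. Of 8 measured NRF2 target genes 3 rose and none fell: HMOX1 by 0.40, GSR by 0.30 and TXNRD1 by 0.28. The HMOX1 call held without any 1 array, GSR was lost without any 1 array other than NSC replicate 3 and TXNRD1 without any other than shBRG1 replicate 3 (adjusted p up to 0.073 and 0.084).

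Among 52 measured receptors of other classes 7 rose and 5 fell. DCAF8, a CUL4 receptor, rose by 0.63 (adjusted p = 0.00145), ASB13 by 0.57, KCTD2 by 0.35 and DCAF7 by 0.31. SPOPL, a CUL3 receptor, fell by 0.70 (adjusted p = 0.00157), KCTD9 by 0.65, FEM1A by 0.44, APPBP2, a CUL2 receptor, by 0.39, and ASB1, named after its value was seen, by 0.40. Leaving out any 1 of 3 arrays ended the call of DCAF7 (NSC replicate 2, shBRG1 replicates 1 and 2, adjusted p up to 0.055) and of KCTD2 (NSC replicate 1, shBRG1 replicates 2 and 3, up to 0.066), and replicate 1 or 3 of either group that of ASB1 (up to 0.069). Of 34 measured substrates of these ligases 5 rose and 8 fell, the median difference being 0.00. The 8 include FBXO5, which is also counted among the family members that fell. With 1 array left out, 5 or 6 substrates rose and 6 or 7 fell. Those that rose were BCL6 (0.85), EPAS1 (0.73), PDCD4 (0.66), NFE2L2 (0.42) and, named after its value was seen, WNK1 (0.38). The largest falls were of cell-cycle genes, CCNE1 (-0.78) and CCNE2 (-0.74), with AURKA at -0.51 and CDC25B at -0.45. Of 4 measured ubiquitin and E1 genes 0 passed limma's threshold, and 0 had an unadjusted p under 0.05. Of 23 E2 genes 3 rose, UBE2E3 (0.50), UBE2D4 (0.45) and UBE2G1 (0.41), and 2 fell, UBE2S (-0.68), which extends chains for the anaphase-promoting complex, and UBE2V2 (-0.39).

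**Figure D5:**
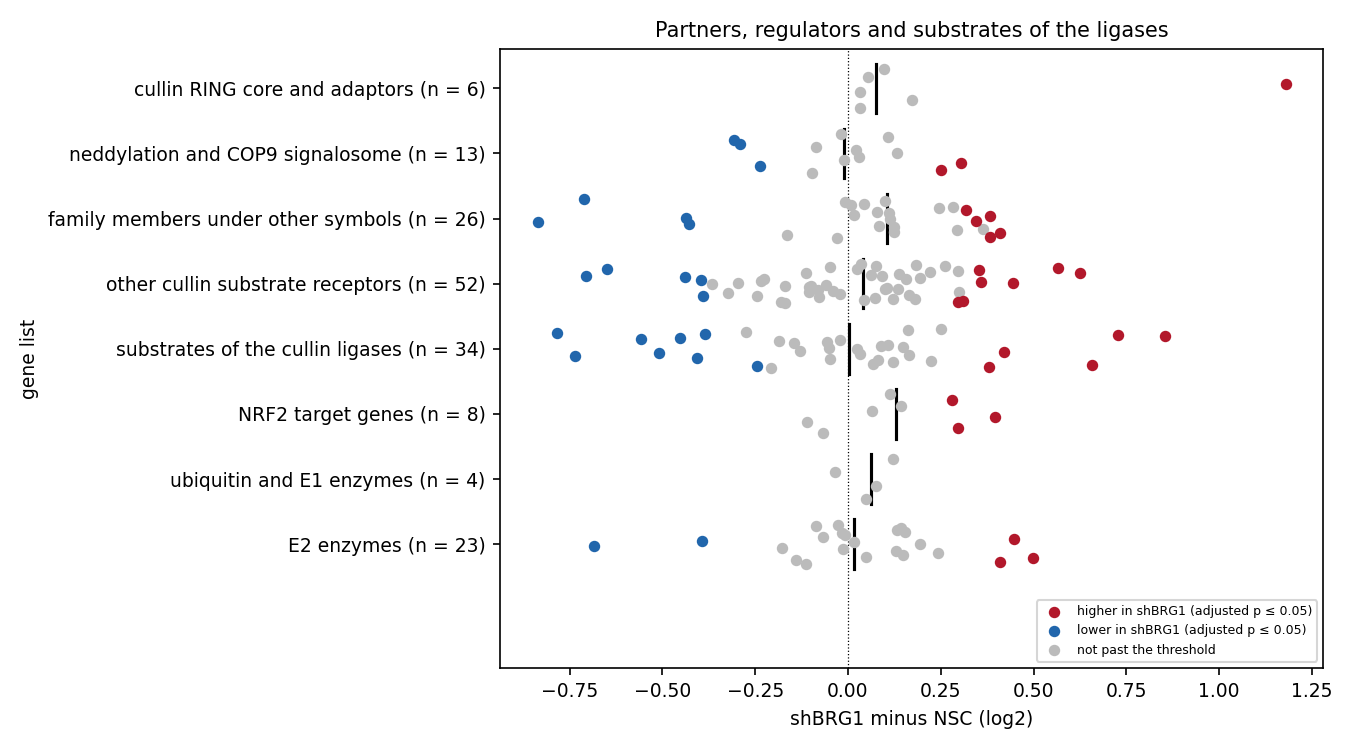
Log2 difference, shBRG1 minus NSC, of the measured genes of 8 lists of partners, regulators and substrates of the ligases, one point per gene, with the list median as a line and genes past the adjusted p of 0.05 coloured. DDA1 stands alone at 1.18 among the core subunits, and the median differences of the lists lie between -0.01 and 0.13.

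As to the identity of the cells, 11 of 12 markers of sympathetic neuroblasts were measured, with a median level of 9.35. Of the 11, 7 fell (6 or 7 with 1 array left out), namely PHOX2A, HAND2, GATA2, ISL1, RET, CHGA and CHGB. The CHGB call was lost without any 1 array other than shBRG1 replicate 2 (limma adjusted p up to 0.080). These 7 are 63.6% of the measured markers, beside 11.9% of named genes at or above the median level that fell. The other 4 differed by more than 0 without passing the test, and 1 of them had all shBRG1 values above the NSC values. The mean log2 level of the 11 markers was 9.48 to 9.52 on the shBRG1 arrays and 9.72 to 9.76 on the NSC arrays. Of 14 markers of Schwann cells, fibroblasts and leukocytes 6 were measured, and 2 fibroblast markers rose, DCN by 0.44 and LUM by 0.39, though LUM was not called when any 1 of NSC replicates 2 and 3 and shBRG1 replicates 1 and 2 was left out (adjusted p up to 0.081). Of the other 4, CD14 of leukocytes differed by 0.11, and the Schwann cell markers S100B, SOX10 and ERBB3 by -0.41, -0.29 and -0.15. None of these 4 passed the test, and the groups of S100B and SOX10 did not overlap. The mean level of these 6 was 5.20 to 5.35 on the shBRG1 arrays and 5.20 to 5.31 on the NSC arrays, and the part of these shifts in the ligase results was not tested.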

How the data were processed

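The deposited table holds log2 expression values per probe set for 6 arrays. Per the submitters' processing notes the authors used RMA, oligo 1.27, limma 3.19 and R 3.1.0; the log2 scale was taken from the range of the values, 1.19 to 13.8. RMA sets all arrays to a common distribution, which hides any shift common to all genes and can understate changes of dim genes. The probes' genome build is not given in the sources. Groups follow the lentivirus label, which reads shBRG1 where titles spell shRG1. Array medians were 3.77 to 3.84. Precision is limited by having 3 arrays in each group, with a median SE of 0.09 for a log2 difference.

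Of 52299 probe sets, 15828 carried 1 gene symbol in the platform annotation, all matched by gene ID to the RefSeq table of GRCh38.p14, and 36471 carried none. The brightest probe set by the mean of 6 arrays was kept per gene, leaving 14883 genes and setting aside 945 probe sets. Several probe sets stood behind 8 members, and 4 symbols with a family prefix did not match the pattern. limma 3.58.1 in R 4.3.3 (lmFit, eBayes, two-sided, no covariates) compared shBRG1 with NSC, with Benjamini-Hochberg adjustment over all named genes and a threshold of 0.05. The fit was also run on data simulated from limma's own fitted model, which cannot show how well that model suits these arrays. For 9 gene pairs an exact permutation test compared within-array differences between the groups. Promoter windows of 250 bases were matched by symbol. Figures used matplotlib 3.10.9 in Python 3.11.15.

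The text names every CUL gene, up to 6 called genes per direction in each other family with groups apart, the 2 brightest of each family, 31 genes listed by name (26 measured), and up to 4 genes per direction of each list. All 7 neuroblast markers that fell are named as well. Members and lists were chosen with earlier results of these data known. Alternatives were median centring, cyclic loess, dropping genes below the median level, averaging probe sets, trend and robust options, array weights, the replicate number as a block, each array left out, and an adjusted p of 0.01. Same-numbered samples of the groups did not deviate together (correlations -0.04, -0.14 and -0.03), so the numbers were not taken as pairs.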

Additional observations from a re-analysis of the deposited data

How the results depend on the processing

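No difference of a named member changed sign between the main fit and an alternative where the member was called in either. Sign changes of members called in neither were not counted, and small differences such as that of FBXO11 can change sign. Of the 26 calls, 13 held at the threshold of 0.05 under every alternative fit that tested them, 9 of them also at 0.01. The arrays number 3 per group, detection calls were not used here, and dim genes could hardly be called. The causes of the movements below were not tested. By design fewer genes are tested without dim genes, and fewer samples without an array.

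Counts that moved are given as family or list, then direction in shBRG1 cells. At an adjusted p of 0.01 there were 6 members higher and 3 lower, among 563 and 523 of all named genes. The counts were 0 FBXL higher and 0 lower, 1 FBXO higher and 0 lower, 0 KLHL higher, 1 KLHDC higher and 0 lower, and 3 TRIM higher and 0 lower. The lists gave 0 neddylation and COP9 genes higher and 0 lower, 1 relative under another symbol higher, 2 other receptors higher, 4 substrates lower, 0 NRF2 targets higher and 1 marker of other cell types higher. With the replicate block there were 13 members higher and 5 lower (10.6%, beside 10.8% of all named genes), and 870 of all named genes higher. It gave 0 FBXL lower, 2 FBXO higher and 0 lower, 1 KLHDC higher and 0 lower, 0 neddylation and COP9 genes higher and 0 lower, 3 relatives higher, 3 other receptors higher and 1 NRF2 target higher. With trend and robust options 29 members were higher and 16 lower, 26.5% of members beside 22.2% of all named genes. The counts were 2 FBXL higher, 4 FBXO lower, 4 FBXW higher, 2 KLHDC lower, 8 TRIM higher and 6 lower, 2 core subunits higher, 8 other receptors lower, 5 E2 genes higher and 1 neuroblast marker higher.

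Without dim genes 25 members were higher and 16 lower among 101, 40.6% of them beside 43.0% of all named genes tested. There were 2 FBXL higher, 4 FBXO lower, 3 FBXW higher, 2 KLHL lower, 2 KLHDC lower, 8 TRIM higher and 5 lower, 2 core subunits higher, 8 other receptors lower, 1 neuroblast marker higher and 1 marker of other cell types lower. Cyclic loess gave 15 members lower, 3 FBXO higher and 4 lower, 2 KLHL lower, 5 TRIM lower, 0 neddylation and COP9 genes higher, 8 other receptors lower and 1 marker of other cell types lower. Median centring gave 2 FBXO lower, 2 KLHDC lower, 0 neddylation and COP9 genes higher and 1 marker of other cell types lower. Array weights gave 2 FBXL higher, 2 FBXO lower and 2 KLHDC lower. Averaging probe sets left all these counts within 1.5 times of those reported.

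Leaving out each array in turn gave 9 to 17 members higher and 4 to 8 lower, and 840 to 1055 of all named genes higher and 694 to 859 lower. By family there were 1 to 2 FBXL higher and 0 to 1 lower, 2 to 5 FBXO higher and 0 to 2 lower, 1 to 2 FBXW higher, 1 to 4 KLHL higher, 1 to 2 KLHDC higher and 0 to 1 lower, and 3 to 4 TRIM higher and 1 to 3 lower. By list there were 0 to 1 neddylation and COP9 genes higher and 0 to 1 lower, 2 to 5 other receptors higher, 1 to 2 NRF2 targets higher, and 1 to 2 markers of other cell types higher and 0 to 1 lower.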
